A study of Rattus norvegicus with 8 samples.

Results

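The mast cell protease genes Mcpt1l4, Mcpt8l3 and Mcpt1 were followed through single-cell RNA-seq libraries of liver immune cells from rats. These 3 genes, of 32754 in the count tables, were chosen by their pattern in the same data, so the description of which cells carry them is not tested here. The identifiers in the files were ENSRNOG00000031792 for Mcpt1l4, ENSRNOG00000049991 for Mcpt8l3 and ENSRNOG00000020625 for Mcpt1. All barcodes with at least 500 unique molecular identifiers (UMIs) were used, 34053 in 8 libraries. Each was placed by its own UMIs: 8457 barcodes held Ncr1, which encodes the natural killer (NK) cell receptor NKp46, 3245 held the Ly49 receptor gene Klra22, 9134 held the T cell gene Cd3e, 714 held Hdc or Fcer1a of mast cells and basophils, and 17236 held none of these. A barcode could hold several of these genes.

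Mast cell proteases are serine proteases stored in the secretory granules of mast cells and, for some members, basophils. Their genes lie in a cluster on the same chromosome as genes for some granzymes. Granzymes are related proteases that NK cells and cytotoxic T cells release together with perforin into target cells. In the liver, NK cells are an abundant lymphocyte population, with a tissue-resident and a circulating form.

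The libraries came from 4 male Han Wistar rats, a common outbred strain. NC1 and NC2 received a diet of defined l-amino acids with sufficient choline (CSAA), and PC1 and PC2 the choline-deficient form of this diet (CDAA), which is used to induce steatohepatitis. The immune cells of each liver, enriched by density centrifugation without a sort, were sequenced once fresh and once after DMSO cryopreservation for 3 weeks, which gave 2 libraries in each of the 4 combinations of diet and preservation. Frozen cells were captured after storage, so preservation and the time of capture cannot be told apart. Libraries held 18338700 to 26471843 UMIs, with a median of 3339 to 4309 per barcode. Libraries of different animals shared 13 to 35 barcode sequences and those of the same animal 14 to 36.

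The windows before the start sites are shown because the 3 genes belong to the same cluster. Whether the windows relate to the barcodes that carried the genes was not tested. RefSeq places the cluster on chromosome 15 of the GRCr8 assembly, with Mcpt8l3 and Mcpt8l2 next to each other and Mcpt1 a few genes further, while Cma1, the gene of mast cell chymase, lies at the cluster's end. The 250 bases before the annotated start of Mcpt8l3 (chr15:33673014-33673263, plus strand), of the RefSeq gene Mcpt1l3, the only entry that carries the name Mcpt1l4, as a synonym (chr15:33806396-33806645, plus strand), and of Mcpt1 (chr15:33841356-33841605, plus strand) are given 5′ to 3′. Capitals mark TGATAA on either strand (a GATA motif, found in 7.97% of 33469 rat promoters of this length), TGTGGT on either strand (a RUNX motif, 14.5%) and TATAAA on the sense strand (a TATA box, 8.06%).
Mcpt8l3: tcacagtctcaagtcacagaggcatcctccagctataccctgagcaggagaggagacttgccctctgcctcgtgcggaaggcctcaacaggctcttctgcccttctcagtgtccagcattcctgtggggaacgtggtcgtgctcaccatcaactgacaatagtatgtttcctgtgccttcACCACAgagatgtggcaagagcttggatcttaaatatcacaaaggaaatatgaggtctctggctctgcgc
Mcpt1l3 (Mcpt1l4): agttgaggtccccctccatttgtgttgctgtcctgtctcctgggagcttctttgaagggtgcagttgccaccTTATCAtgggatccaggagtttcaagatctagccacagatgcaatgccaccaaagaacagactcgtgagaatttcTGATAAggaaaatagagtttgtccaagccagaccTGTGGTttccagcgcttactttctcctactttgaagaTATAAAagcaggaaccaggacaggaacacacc
Mcpt1: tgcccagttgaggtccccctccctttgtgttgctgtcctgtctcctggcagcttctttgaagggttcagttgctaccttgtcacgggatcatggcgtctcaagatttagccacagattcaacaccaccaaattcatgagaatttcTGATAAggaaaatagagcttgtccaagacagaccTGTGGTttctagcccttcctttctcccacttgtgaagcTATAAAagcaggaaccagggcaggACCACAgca
The windows of Mcpt1l4 and Mcpt1 were alike, with 217 of 257 aligned columns identical (84.4%), and both held a TATA box 32 or 33 bases before the start, a RUNX motif 69 or 71 bases before it and a GATA motif 103 or 105 bases before it. The Mcpt8l3 window shared 45.1% of its columns with Mcpt1l4 and 48.2% with Mcpt1, near the 48.1% to 49.8% between the Cma1 window and those of Mcpt1l4, Mcpt1 and Mcpt8l2. It held the RUNX motif only, 70 bases before the start. With the Mcpt8l2 window it shared 175 of 318 aligned columns (55.0%), of which 182 held a base in both. In Mcpt8l2 the RUNX motif lay 138 bases before the start, so such positions depend on the annotated start. The count tables list Mcpt1l3 and Mcpt1l4 as separate rows, and Mcpt1l3 had 1 UMI in all, so the window fits the row Mcpt1l4 only as far as the synonym holds.

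In every library the levels of Mcpt1l4 and Mcpt8l3 were higher in Ncr1 positive barcodes than in barcodes with Cd79b or Csf1r, as defined below. For Mcpt1l4, the summed level in Ncr1 positive barcodes, in CPM (the gene's UMIs scaled to a common total of UMIs for each class and library), was 394 in NC1 fresh, 876 in NC2 fresh, 256 in PC1 fresh, 110.1 in PC2 fresh, 156 in NC1 DMSO, 501 in NC2 DMSO, 200.1 in PC1 DMSO and 144 in PC2 DMSO. The NC2 libraries were the highest of both states. For Mcpt8l3, the same barcodes held 237, 589.6, 170.2, 89.2, 66.0, 272, 125 and 79.7 CPM in the same order of libraries. The order of the libraries was thus similar for both genes.

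Both genes were also read in barcodes chosen by a B cell or a macrophage gene, and their level there was large. A single UMI of Cd79b or Csf1r marked a cell type weakly. Cd79b was read in 26.1% of Ncr1 positive barcodes and 27.1% of all, and Csf1r in 49.6% and 54.7%. The levels in these classes are thus not those of B cells or macrophages alone. Barcodes with the B cell gene Cd79b and without Ncr1, Klra22, Cd3e, Hdc or Fcer1a held 21.5 to 345 CPM of Mcpt1l4 and 9.19 to 189.6 CPM of Mcpt8l3. The level in Ncr1 positive barcodes was 2.50 to 7.26 times that in Cd79b positive barcodes for Mcpt1l4 (median 2.71 over the 8 libraries) and 1.79 to 9.70 times for Mcpt8l3 (median 3.93). Against barcodes with Csf1r, a macrophage gene, the folds were 2.77 to 6.09 and 2.17 to 7.83. Droplets with 1 to 100 UMIs, which hold free RNA and no cell, had 63.1 to 495 and 35.0 to 271 CPM, and Ncr1 positive barcodes exceeded them 1.49 to 2.47 times for Mcpt1l4 and 1.32 to 3.51 times for Mcpt8l3. Each of these folds was above 1 in 8 of 8 libraries. T cell barcodes (Cd3e without Ncr1) were 2.12 to 3.95 times lower in Mcpt1l4 than Ncr1 positive barcodes. For Mcpt8l3 they were lower in 7 of 8 libraries, the exception being NC1 fresh with 443 CPM. There 2712 of the 3585 UMIs of the class lay in 3 barcodes with 3 or more mast cell or basophil markers. Without such barcodes the class held 108 CPM in NC1 fresh, and Ncr1 positive barcodes were 2.17 to 3.96 times higher in 8 of 8 libraries.

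**Figure D1:**
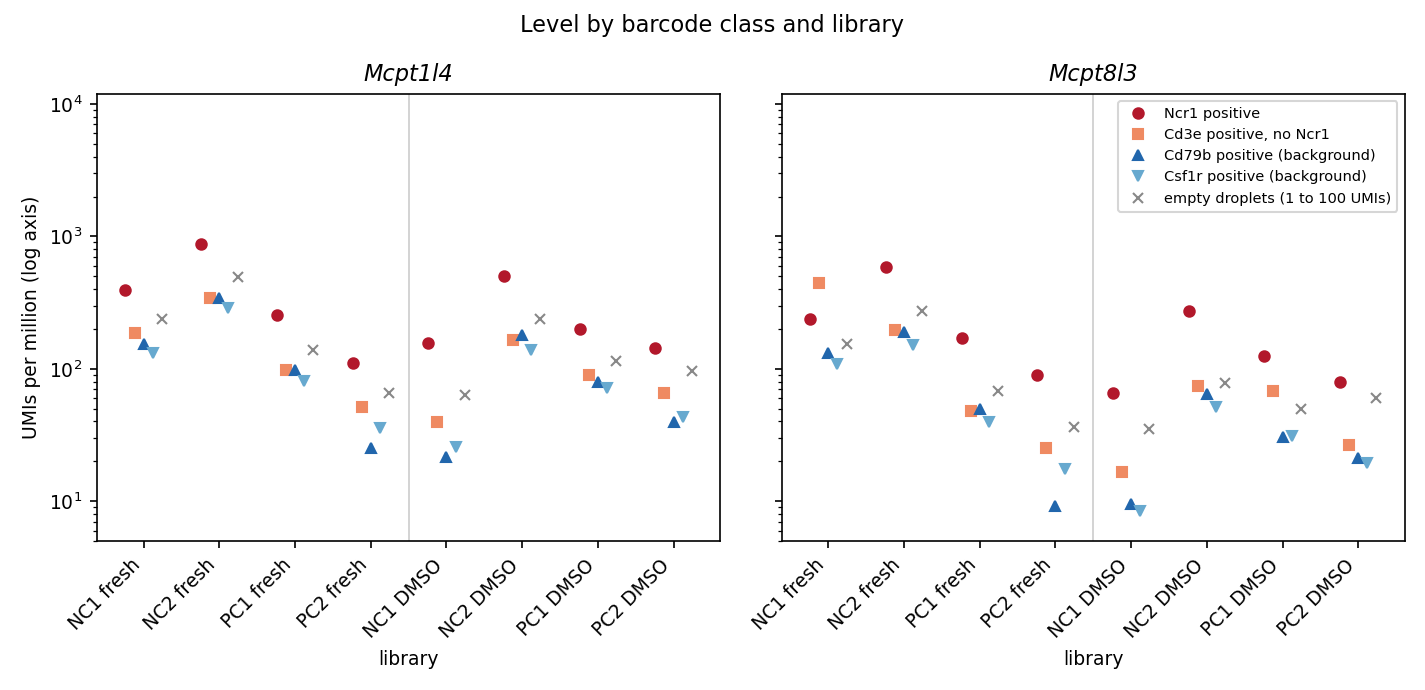
Summed level of Mcpt1l4 (left) and Mcpt8l3 (right) in CPM (log axis) by library, 1 point per library and barcode class. Ncr1 positive barcodes (red circles) lie above Cd79b and Csf1r positive barcodes (triangles) and above empty droplets (crosses) in all 8 libraries, and the T cell square of NC1 fresh lies above the red circle for Mcpt8l3.

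Klra22 positive barcodes had levels of the same order as Ncr1 positive ones. The ratio of Ncr1 to Klra22 positive barcodes ran from 0.540 to 1.49 for Mcpt1l4 and from 0.708 to 1.41 for Mcpt8l3, above 1 in 4 of 8 libraries for each. The libraries below 1 were those of PC1 and PC2. With each barcode counted once, in the order Hdc or Fcer1a, Ncr1, Klra22, Cd3e and others, the Ncr1 positive class held 34.8% to 58.1% of all Mcpt1l4 UMIs and 18.4% to 57.1% of all Mcpt8l3 UMIs, while it made up 10.8% to 31.2% of barcodes. The lowest Mcpt8l3 share, 18.4%, was that of NC1 fresh, where the Hdc or Fcer1a class held 52.9%. Barcodes with none of the class genes held 20.4% to 30.3% of the Mcpt1l4 UMIs. Among them, those that also lacked Cd79b, Siglech and Csf1r were shallow, with a median of 1100 to 1512.5 UMIs (medians of the libraries). They reached 129 to 785 CPM of Mcpt1l4, so the Ncr1 positive class did not cover all cells with the gene. The level in Ncr1 positive barcodes was 0.679 to 1.54 times theirs for Mcpt1l4, above 1 in 5 of 8 libraries. For Mcpt8l3 it was 0.890 to 1.89 times theirs, above 1 in 6 of 8 libraries.

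The share of barcodes with Ncr1 rose with the number of Mcpt1l4 UMIs per barcode, up to 10 to 49. Mcpt1l4 was at 0 UMIs in 22823 barcodes, at 1 in 6092, at 2 to 4 in 3331, at 5 to 9 in 1107, at 10 to 49 in 696 and at 50 or more in 4. Along these steps, the share of barcodes with an Ncr1 UMI rose from 19.1% at 0 to 26.5%, 41.1%, 59.8% and 65.5% at 10 to 49. For Mcpt8l3 it was 20.0% at 0 UMIs and 31.7%, 48.95%, 71.0% and 64.4% at the following steps. Median depth was also higher above 0, with 3541 UMIs at 0 Mcpt1l4 UMIs, 5147 at 2 to 4 and 4290 at 5 to 9. These shares were not set to equal depth. Nkg7, a granule membrane gene of cytotoxic cells, was read in 82.4% of barcodes at 0 Mcpt1l4 UMIs, of which 19.1% held Ncr1. It was also read in 82.6% of barcodes with 3 or more of 5 B cell markers. Shares of abundant NK cell genes thus carry a large background here.

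To compare barcodes of unlike depth, the share expected to hold a gene at 1000 UMIs was computed from the counts of each barcode, leaving out shallower barcodes. Outside the barcodes with mast cell or basophil markers described later, 1777 barcodes held 5 or more Mcpt1l4 UMIs. At 1000 UMIs, 85.2% of them were expected to hold Cd7 (31.7% of those at 0 Mcpt1l4 UMIs), 73.8% Xcl1, an NK cell chemokine (26.4%), 67.4% Il2rb, an interleukin-2 and interleukin-15 receptor chain (24.3%), 75.1% Prf1, perforin (36.5%), and 21.5% Ncr1 (6.50%). Csf1r, at 9.43% against 28.9%, and Cd79b, at 6.59% against 11%, were lower. The 967 barcodes with 5 or more Mcpt8l3 UMIs were similar, with 87.1% for Cd7, 75.9% for Xcl1 and 23.0% for Ncr1. For comparison, Ncr1 was expected in 2.90% of 1098 barcodes with 3 or more of 5 B cell markers, 11.3% before thinning. Cd3e was not lower in high carriers, with 9.48% against 9.69% for Mcpt1l4, and before thinning 31.2% of them and 23.7% of the barcodes at 0 held it. All 9 mast cell and basophil markers were expected in under 1% of these high carriers of either protease, from which barcodes with 3 or more of the markers had been left out. Kit, a stem cell factor receptor gene, was higher in Mcpt1l4 high carriers (0.974% against 0.174%), as were Ms4a2 (0.177% against 0.0640%), Hdc (0.411% against 0.310%) and Tpsab1 (0.0645% against 0.00192%). Cpa3, Gata2, Fcer1a and Cma1 were not higher with Mcpt1l4. Barcodes at 0 UMIs had not been filtered by these markers, so values that were not higher can follow in part from the filter. In Mcpt8l3 high carriers, Kit (0.919% against 0.201%), Ms4a2 (0.288% against 0.0570%) and Hdc (0.466% against 0.316%) were higher. So were Fcer1a (0.149% against 0.0765%) and Tpsab1 (0.0273% against 0.00970%), while Cpa3, Gata2 and Cma1 were not. These values describe the barcodes by the same classes that chose the genes and test no label.

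Ncr1 positive barcodes with Mcpt8l3 held Mcpt1l4 more often than Ncr1 positive barcodes as a whole. Of those with a Mcpt8l3 UMI, 65.1% to 90.1% also held Mcpt1l4, where 23.2% to 81.3% of all did. In NC2 fresh, with the highest shares, these were 90.1% and 81.3%. Of those with a Mcpt1l4 UMI, 48.4% to 72.3% held Mcpt8l3. At 5 or more UMIs of each gene, the same shares were 78.3% to 100% and 20.8% to 65.3%, so many barcodes high in Mcpt1l4 were not high in Mcpt8l3. The 100% and the 20.8% were both of NC1 DMSO, with 5 of 5 and 5 of 24 barcodes. The limit was the same for both genes, though Mcpt8l3 had fewer UMIs in this class. These shares were not set to equal depth. The ratio of Mcpt1l4 to Mcpt8l3 UMIs was 1.23 to 2.36 in Ncr1 positive barcodes, 1.17 to 2.78 in Cd79b positive barcodes and 1.54 to 3.08 in empty droplets.

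Within Ncr1 positive barcodes, the carriers had more Xcl1 and Cd7 and less Klrg1. Cd7, a surface receptor of T and NK cells, showed the largest difference for Mcpt1l4, and for Mcpt8l3 it came after Mcpt1l4. At 1000 UMIs it was expected in 59.99% of barcodes with and 35.8% of those without a Mcpt1l4 UMI (means of 8 libraries). Mcpt8l3 followed with 26.3% against 4.92% and Xcl1 with 55.7% against 34.5%, then the interferon-inducible genes Ifi27l2b with 60.9% against 44.96% and Ifitm1 with 68.6% against 54.4%. For Mcpt8l3 the same 4 genes followed Mcpt1l4, with 63.6% against 38.1% for Cd7 and 60.5% against 35.9% for Xcl1. Each was higher in 8 of 8 libraries, which describes how these genes were picked. Over all 11116 genes compared, the median difference was 0.0200 percentage points for Mcpt1l4 and 0.0120 for Mcpt8l3. A total of 434 genes were higher and 290 lower in all 8 libraries for Mcpt1l4, and 429 and 348 for Mcpt8l3. Cd7 was also expected in 91.8% of barcodes with 3 or more mast cell or basophil markers, so it did not separate these from NK cells.

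Of 18 genes in the NK subset list, 6 were higher and 3 lower with Mcpt1l4 in 8 of 8 libraries, and 9 were mixed. For Mcpt8l3 the counts were 6, 4 and 8. Itga2, Il7r, Klrc1, Eomes and Ccl3 were among the mixed genes for both. Tnfsf10, the death ligand TRAIL, was expected in 4.19% of barcodes with and 1.45% without Mcpt1l4, and Cxcr6 and Itga1, which mark tissue-resident lymphocytes, in 1.04% against 0.441% and 2.21% against 1.36%. These 3 genes were higher in 8 of 8 libraries for both proteases. Klrg1, an inhibitory receptor of mature NK cells, was lower with Mcpt1l4, 4.83% against 9.94%, as were S1pr5, a receptor for egress into the blood, 2.53% against 4.72%, and the transcription factor gene Zeb2, 2.45% against 3.28%, in 8 of 8 libraries for both proteases. The small shares are near the level of single UMIs. Among granzymes, Gzmm was higher (84.1% against 78.4%), while Gzmb (30.0% against 34.4%) and Gzmk (49.7% against 58.5%) were lower with Mcpt1l4 in 8 of 8 libraries. With Mcpt8l3, Gzmk was lower in 5 libraries and higher in 3. Cd3e did not separate carriers, with 8.03% against 8.28% for Mcpt1l4.

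**Figure D2:**
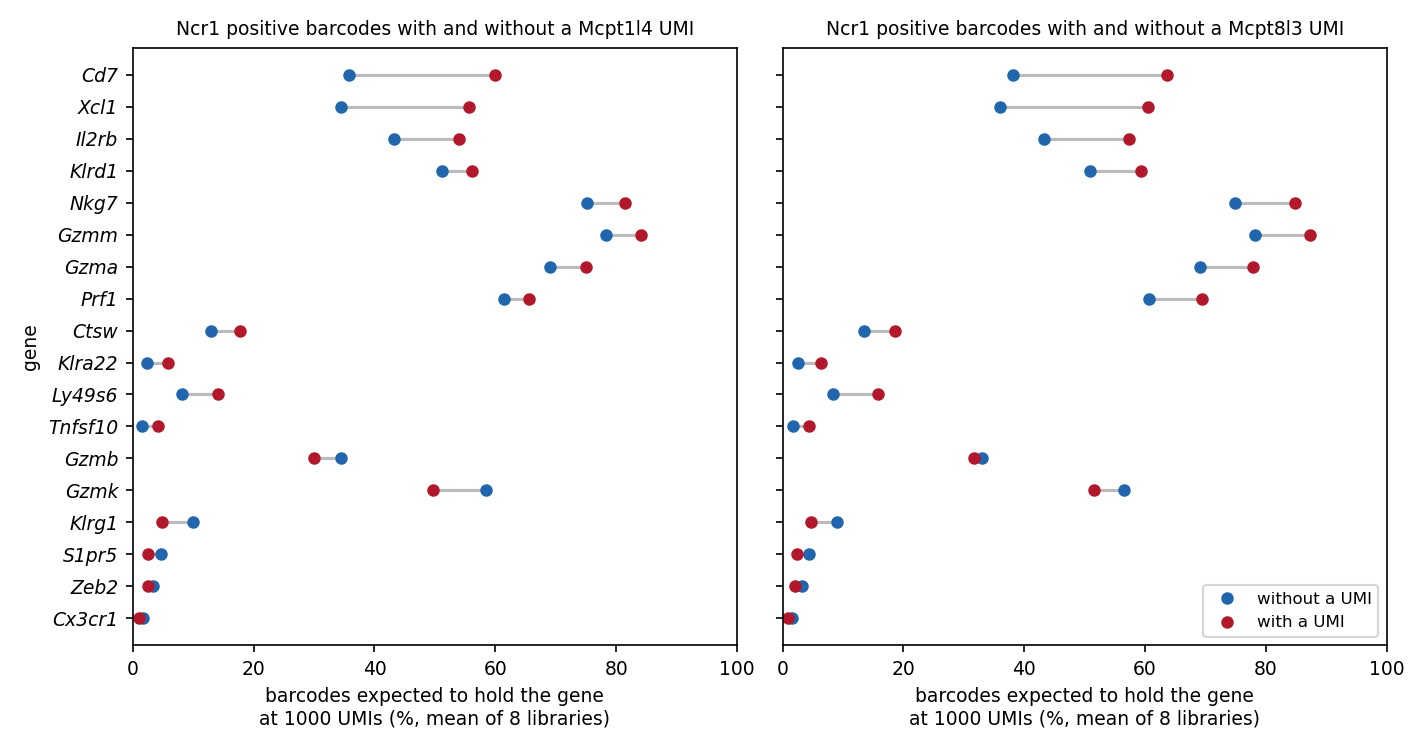
Percentage of Ncr1 positive barcodes expected to hold each gene at 1000 UMIs (mean of 8 libraries), with (red) and without (blue) a UMI of Mcpt1l4 (left) or Mcpt8l3 (right). Cd7 and Xcl1 show the widest gaps, with red to the right, and Klrg1 lies to the left in red in both panels.

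Splitting the same barcodes by the subset genes reads this association from the other side and is no separate support for it. Ncr1 positive barcodes with Xcl1 and without Klrg1 held 147 to 1044 CPM of Mcpt1l4 and those with Klrg1 65.2 to 493. The fold within a library was 2.12 to 3.95 for Mcpt1l4 and 1.03 to 3.75 for Mcpt8l3. It was above 1 in 8 of 8 libraries for both, with the lowest Mcpt8l3 value, 1.03, in PC1 DMSO. There a barcode with 3 or more mast cell or basophil markers held 105 of the Klrg1 class's Mcpt8l3 UMIs. Without such barcodes the lowest fold was 1.67. Ncr1 positive barcodes without Xcl1 or Klrg1, 71 to 243 per library, held 21.9 to 462 CPM of Mcpt1l4. Their median over the libraries was 76.1 CPM, against 104 in the Klrg1 class, and for Mcpt8l3 it was 45.7 against 97.8. Low levels were thus not particular to barcodes with Klrg1.

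Over 60 summed profiles of barcode classes by library, the gene most like Mcpt1l4 was Mcpt8l3 (Pearson's r = 0.945 of log2 levels across profiles), followed by Art2b (0.927), which encodes the RT6 surface enzyme, Mcpt8l2 (0.858), Chn2 (0.855) and Gata3 (0.854), a transcription factor gene. Mcpt8l3 was most like Mcpt8l2 (0.957), its neighbour, then Mcpt1l4, Art2b (0.894), Gata3 (0.853) and Cd226 (0.824), an activating receptor. Mcpt1 was most like Cma1 (0.749). The profiles share libraries, depth and free RNA, so these values describe likeness only.

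The other proteases of the family, listed by symbol and not by position in the cluster, ranged from the most abundant granule transcripts to none. All Mcpt and Gzm symbols with Cma1 and Ctsg made up 19 rows. In all barcodes, Gzmm had 257016 UMIs, Gzma 254905, Gzmk 123031 and Gzmb 45686, against 33010 for Mcpt1l4, 22958 for Mcpt8l3, 7991 for Mcpt8l2, 1424 for Cma1, 224 for Mcpt1 and 12 for Mcpt3. Ctsg had 0 UMIs and Mcpt1l1 had 2. These are counts of 3′ tags per gene and reads shared by near-identical genes were not counted, so the rank among the proteases is uncertain. Mcpt8l2 ran from 14.1 CPM in Ncr1 positive barcodes of NC1 DMSO to 155 in NC2 fresh.

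A small set of barcodes with mast cell or basophil markers held 123 of the 224 Mcpt1 UMIs and, in NC1 fresh, 48.8% of those of Mcpt8l3. Of the 9 mast cell and basophil markers (Hdc, Fcer1a, Ms4a2, Cpa3, Tpsab1, Tpsb2, Gata2, Kit and Cma1), 3 or more were present in 57 barcodes, 24 of them in NC1 fresh, 14 in NC2 fresh, 3 in PC1 fresh, 8 in PC2 fresh, 0 in NC1 DMSO, 2 in NC2 DMSO and 3 each in PC1 and PC2 DMSO. Another 76 barcodes lay just below the limit with 2 markers, and 14 just inside it with 3. The mast cell tryptase genes Tpsab1 and Tpsb2 were at 0 in the 57 barcodes. These barcodes held 4150 of the Mcpt8l3 UMIs, 1011 of Mcpt1l4, 2660 of Mcpt8l2 and 123 of Mcpt1. All 8 barcodes with 50 or more Mcpt8l3 UMIs were among them. For Mcpt1l4 this was not so: barcodes with 0 of the markers reached 55 UMIs in NC2 DMSO and 52 in NC2 fresh, and held the highest count in PC1 fresh (23), NC1 DMSO (29) and PC2 DMSO (31). A single barcode of NC1 fresh held 2682 Mcpt8l3 UMIs, 42.1% of that library, with 427 of Mcpt1l4, 1666 of Mcpt8l2, 25 of Ms4a2, 19 of Fcer1a, 50 of Cma1 and 0 of Ncr1 among 16470 UMIs.

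The share of a library's Mcpt8l3 UMIs in these barcodes was 48.8% in NC1 fresh, 5.50% in NC2 fresh, 3.5% in PC1 fresh, 11.3% in PC2 fresh, 15.1% in PC1 DMSO and 11.8% in PC2 DMSO, and at most 0.0461% in NC1 and NC2 DMSO. For Mcpt1l4 the highest share was 11.3%, in NC1 fresh. The ratio of the genes was turned round: 0.199 to 0.571 Mcpt1l4 UMIs per Mcpt8l3 UMI in the 6 libraries with 20 or more UMIs of the pair, below the lowest ratio of Ncr1 positive barcodes, 1.23. NC2 DMSO had 6 and 1 UMIs in these barcodes.

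**Figure D3:**
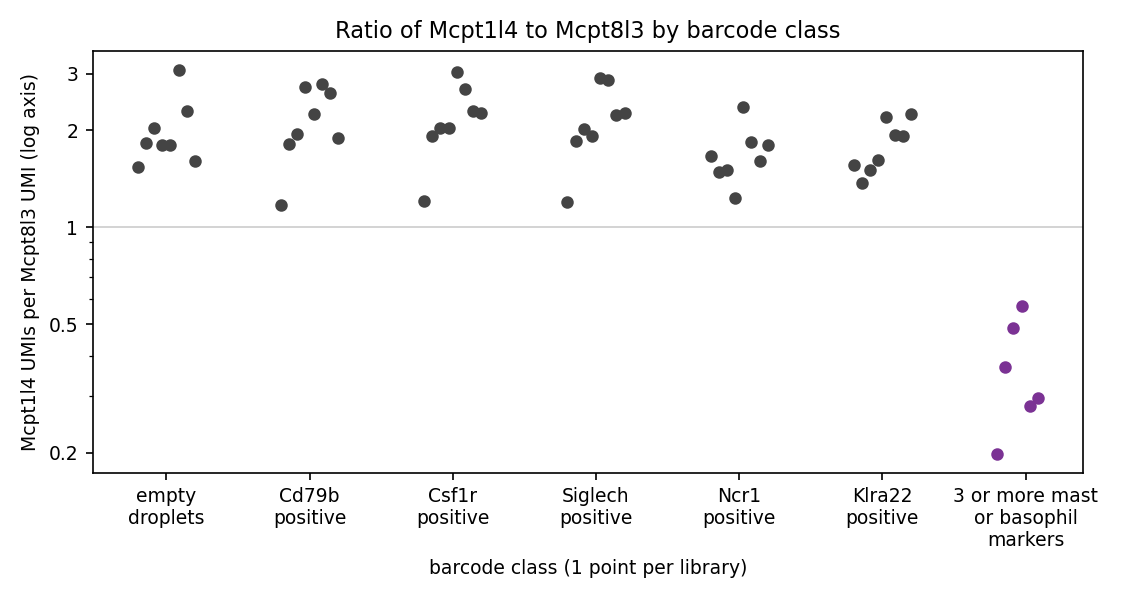
Mcpt1l4 UMIs per Mcpt8l3 UMI (log axis) in 7 barcode classes, 1 point per library with at least 20 UMIs of the pair. The points of barcodes with 3 or more mast cell or basophil markers (purple) lie between 0.199 and 0.571, and those of Ncr1 positive barcodes between 1.23 and 2.36.

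**Figure D4:**
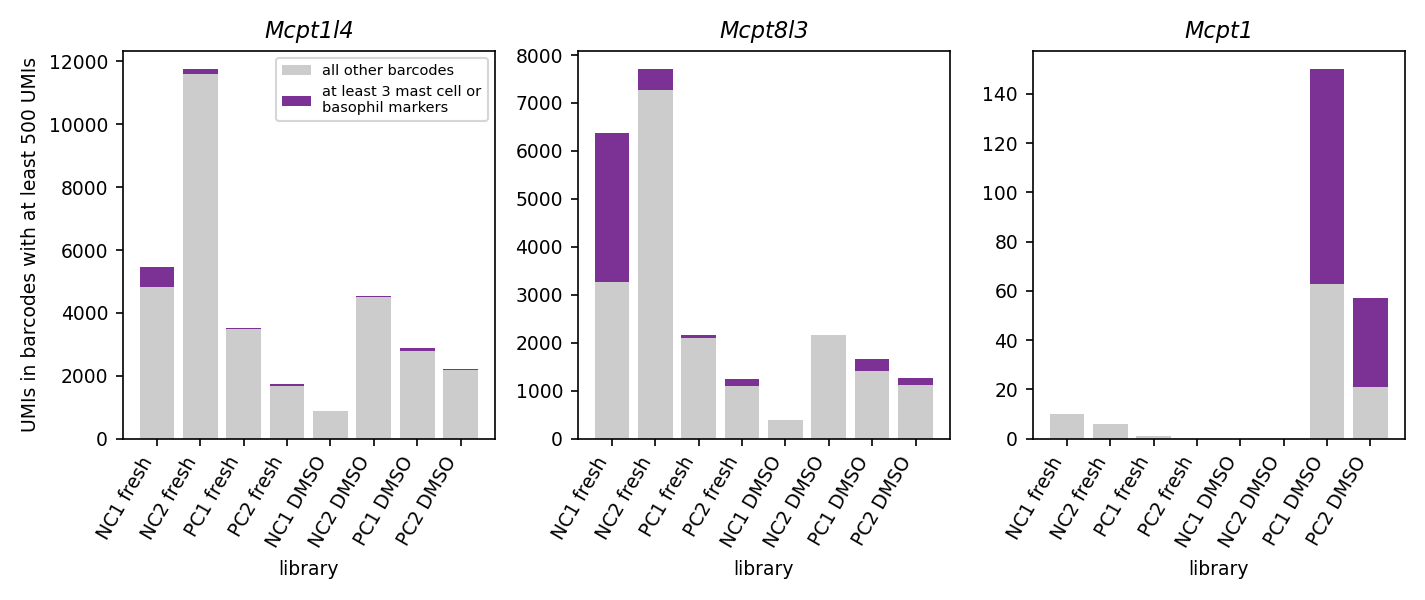
UMIs of Mcpt1l4, Mcpt8l3 and Mcpt1 per library in barcodes with at least 500 UMIs, split into those with 3 or more mast cell or basophil markers (purple) and all others (grey). In NC1 fresh, 3109 of 6373 Mcpt8l3 UMIs are purple, and Mcpt1 reaches 150 and 57 UMIs in the DMSO libraries of PC1 and PC2 and at most 10 elsewhere.

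Mcpt1 was too rare to be given a cell label, and most of its UMIs lay in the DMSO libraries of PC1 and PC2. It had 10, 6, 1 and 0 UMIs in the fresh libraries of NC1, NC2, PC1 and PC2, 0 and 0 in the DMSO libraries of NC1 and NC2, and 150 and 57 in those of PC1 and PC2. Of the 150 UMIs in PC1 DMSO, 87 lay in 2 barcodes with 53 and 34, which also had 166 and 221 UMIs of Cma1, and of the 57 in PC2 DMSO, 35 lay in a barcode with 199 UMIs of Cma1 and 4 mast cell or basophil markers, though 0 of Hdc and Fcer1a. The PC1 barcode with 34 Mcpt1 UMIs and the PC2 barcode each held 1 Ncr1 UMI. Of all barcodes with Mcpt1, 98 had 1 UMI. In the fresh libraries, Ncr1 positive barcodes held 6 of the 10 UMIs of NC1 and 4 of the 6 of NC2. With each barcode counted once, this class made up 22.0% and 30.5% of these libraries, and the Hdc or Fcer1a class held 0 UMIs. Such counts are too few to place the gene in a cell type. In PC1 DMSO the share with a UMI was 2.37% of Ncr1 positive and 1.69% of Cd79b positive barcodes, and empty droplets had 4.85 CPM against 8.27 in Ncr1 positive barcodes. In PC2 DMSO it was 0.356% against 0.621%. At 0 of 400 and 0 of 673 Ncr1 positive barcodes, the DMSO libraries of NC1 and NC2 allow a share of up to 0.750% and 0.446%. The 23 Ncr1 positive carriers of PC1 DMSO had more Grn (55.6% against 39.8% at 1000 UMIs), a macrophage-rich lysosomal gene, and less Nkg7 (61.9% against 76.2%).

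The summed Mcpt1 level of the PC libraries after DMSO was 4.64 CPM. Against the level that 3 UMIs over both libraries would give in the NC libraries, where it had 0, this was at least 50.5-fold higher, and at least 12.3-fold in Ncr1 positive barcodes. Of the 207 UMIs, 123 lay in barcodes with 3 or more mast cell or basophil markers, and without these the level was at least 20.4-fold higher. In the Ncr1 positive class 69 of 95 UMIs lay in the 2 marked barcodes with 1 Ncr1 UMI each, and the remaining 26 gave a level at least 3.30-fold higher. Mcpt1 was chosen for its difference between diets across preservation in these libraries, so no test is given for it.

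The question of preservation was whether cells frozen in DMSO kept the levels of fresh cells, and the animal was the block, since each gave both libraries. In Ncr1 positive barcodes, Mcpt8l3 fell after preservation by 0.79 ± 0.18 on the log2 scale (SE, edgeR's quasi-likelihood test, adjusted p = 0.0170 over 10497 genes). It was lower in 4 of 4 animals, from 237 to 66.0 CPM for NC1, from 589.6 to 272 for NC2, from 170.2 to 125 for PC1 and from 89.2 to 79.7 for PC2. The test called 666 genes, 6.34% of those tested, in this comparison. The call was lost without NC2 (log2 change -0.70, adjusted p = 0.189), with DESeq2 (-0.83, adjusted p = 0.215), without the replicate block (-0.93, adjusted p = 0.652) and in barcodes with at least 4 NK markers (-1.04, adjusted p = 0.0931). Barcodes with at least 4 NK markers need not hold Ncr1. In NC1 fresh they included a barcode with 2682 Mcpt8l3 UMIs and 0 of Ncr1. Without barcodes with 3 or more mast cell or basophil markers, the call in Ncr1 positive barcodes was kept (-0.79, adjusted p = 0.0149). PC1 then fell from 170.2 to 109 CPM and PC2 from 79.2 to 76.9. That setting left the UMIs of other barcodes in place. In Ncr1 positive barcodes edgeR called Hdc and Fcer1a lower and Cma1 higher, of 6 tested mast cell and basophil genes. DESeq2 called 1 lower. In the same barcodes, Mcpt1l4 changed by -0.47 ± 0.18 (adjusted p = 0.144 by edgeR), and it was lower in NC1, NC2 and PC1 and higher in PC2. The level outside Ncr1 positive barcodes moved too: in Cd79b positive barcodes, Mcpt8l3 went from 132 to 9.54 CPM for NC1, from 189.6 to 64.3 for NC2, from 50.02 to 30.6 for PC1 and from 9.19 up to 21.1 for PC2. Its part in the change was not tested. The excess of Ncr1 over Cd79b positive barcodes in Mcpt8l3 was 105, 400.0, 120.2 and 80.0 CPM in the fresh and 56.5, 208, 94.2 and 58.6 in the DMSO libraries, lower in 4 of 4 animals. For Mcpt1l4 the excess was 239, 531, 158 and 84.9 in the fresh and 134, 322, 120.0 and 104 in the DMSO libraries, lower in 3 of 4.

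Over all barcodes, neither gene passed the test. Mcpt8l3 had 296, 379.9, 94.97 and 51.7 CPM in the fresh libraries of NC1, NC2, PC1 and PC2 and 24.0, 129.7, 74.9 and 56.0 in their DMSO libraries. Its log2 change was -1.22 ± 0.48 (edgeR, adjusted p = 0.146), and -0.71 ± 0.32 for Mcpt1l4 (adjusted p = 0.201), in a comparison that called 1003 of 12163 genes, or 8.25%. The share of Ncr1 positive barcodes also moved, for NC1 from 23.5% to 10.9%, for NC2 from 32.0% to 18.3%, for PC1 from 26.1% to 23.7% and for PC2 from 29.2% to 31.4%. Of 7 tested genes of the mast cell and basophil list, edgeR called 2 lower and 0 higher, and DESeq2 called 1 lower. The median log2 change of the list was -1.74. The 2 were Hdc, the histidine decarboxylase gene, which fell by 4.79, and Fcer1a, of the IgE receptor, by 4.83 on the log2 scale (adjusted p = 0.000285 and 0.00530 by edgeR). Barcodes with 3 or more mast cell or basophil markers went from 49 in fresh to 8 in DMSO libraries. Their part in the change was not tested. In summed UMIs, fewer cells of a type and less RNA per cell cannot be told apart.

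Of the protease family without Mcpt1, 12 rows were tested in each preservation comparison. Among the 12 in Ncr1 positive barcodes, Cma1 rose by 2.99 ± 0.56 (edgeR, adjusted p = 0.00645, against 0.401 with DESeq2 and 0.168 without barcodes with 3 or more mast cell or basophil markers) and Mcpt8l3 fell, with a median log2 change of -0.05 over the 12 rows (0.00 over all genes). Over all barcodes edgeR called 0 of the 12, with 5 at an unadjusted p under 0.05, and DESeq2 also called 0. Among all 12163 genes of this comparison, 3169 had an unadjusted p under 0.05 by edgeR. Gzma (log2 change -0.17), Gzmk (0.38) and Gzmm (0.18) did not pass in Ncr1 positive barcodes. Among 11 other granule genes, edgeR called Ctsw alone, a cathepsin gene of cytotoxic cells, at 0.28 ± 0.07 (adjusted p = 0.0281), which DESeq2 did not call (adjusted p = 0.0668). Of 17 tested NK subset genes, Ccl3 and Ifng, the genes of a chemokine and of interferon gamma, rose by 1.79 and 2.80 by edgeR. DESeq2 also called Ccl3 and gave no adjusted p for Ifng.

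The share of Ncr1 positive barcodes with a UMI did not pass its test for either gene. For Mcpt1l4 it was 58.6% fresh and 23.2% after DMSO for NC1, then 81.3% and 59.0% for NC2, 46.2% and 46.5% for PC1 and 27.5% and 32.8% for PC2. The mean difference was -13.0 ± 19.2 percentage points (SD, n = 4, two-sided exact permutation test, p = 0.5, the smallest p possible being 0.125). For Mcpt8l3 it was 52.7% and 15.2%, 65.3% and 42.6%, 34.5% and 32.3%, and 22.4% and 23.5%, a mean difference of -15.3 ± 18.2 (exact permutation test, n = 4, p = 0.25). In the Cd79b positive barcodes, the same shares of Mcpt1l4 were 35.2% and 6.07%, 54.7% and 32.5%, 30.3% and 25.0%, and 11.8% and 16.8%. The median depth of the libraries was 3686 to 5407.5 UMIs for Ncr1 and 2865 to 4092 for Cd79b positive barcodes. At 1000 UMIs, with 13 to 42 shallower Ncr1 positive barcodes left out per library, the Mcpt1l4 share was 31.5% and 10.9% for NC1, then 48.8% and 29.6% for NC2, 19.4% and 16.9% for PC1 and 8.76% and 10.8% for PC2.

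**Figure D5:**
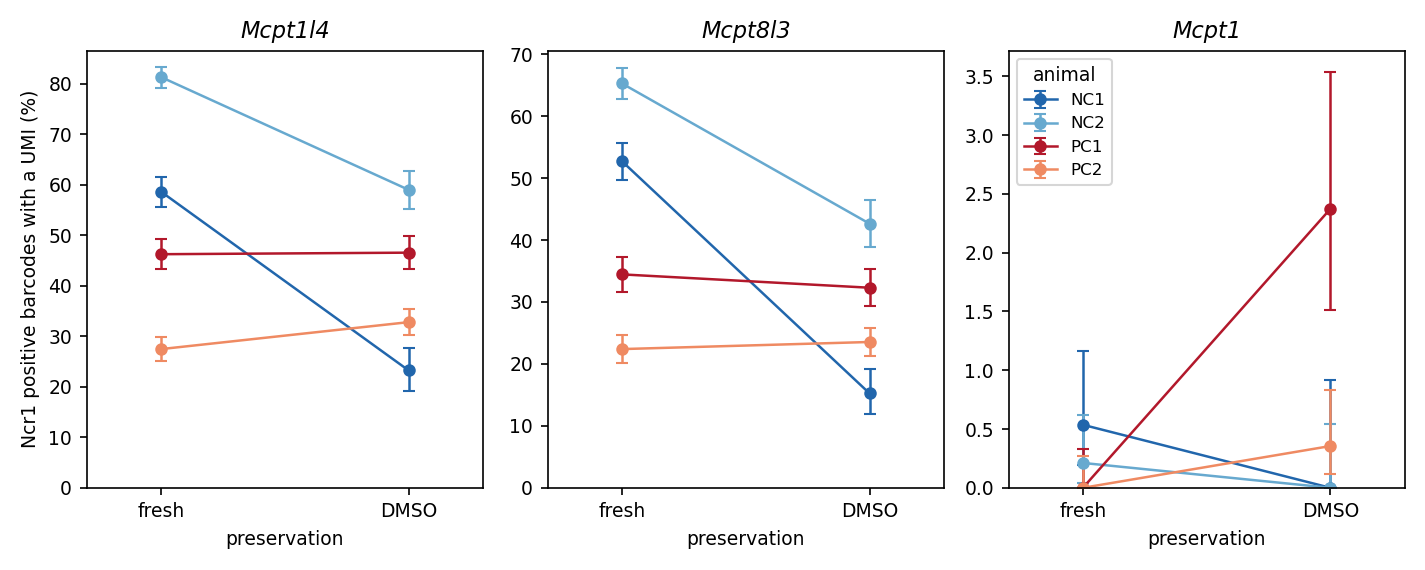
Percentage of Ncr1 positive barcodes with a UMI of Mcpt1l4, Mcpt8l3 and Mcpt1, fresh and after DMSO preservation, joined by animal, with exact 95% binomial intervals that cover counting error only. The blue lines of NC1 and NC2 fall for Mcpt1l4 and Mcpt8l3, while PC1 and PC2 stay within -2.15 and 5.33 percentage points of their fresh value.

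The diet comparison asked what the CDAA diet changed, with 2 animals against 2. In fresh libraries over all barcodes, Mcpt8l3 was lower in the PC animals by 2.19 ± 0.30 on the log2 scale (edgeR, adjusted p = 0.0470), 94.97 and 51.7 CPM against 296 and 379.9. The comparison called 139 of 11772 genes, or 1.18%. Without the barcodes with 3 or more mast cell or basophil markers, the log2 change was -1.88 (adjusted p = 0.12), and without PC2 it was -1.81 (adjusted p = 0.0751). Mcpt1l4 was at 154 and 73.1 against 253 and 579.5, a log2 change of -1.86 ± 0.49 (adjusted p = 0.131). Within Ncr1 positive barcodes the log2 changes were -1.80 ± 0.49 for Mcpt1l4 (adjusted p = 0.150 by edgeR) and -1.68 ± 0.47 for Mcpt8l3 (adjusted p = 0.157). There the call rate over all genes was 1.21%. In the Cd79b positive barcodes, Mcpt1l4 was at 97.7 and 25.1 against 155 and 345 CPM.

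Of 11 tested rows of the protease family in fresh libraries, Mcpt8l2 (log2 change -2.49 ± 0.17, adjusted p = 0.0196 by edgeR) and Mcpt8l3 fell over all barcodes. In NC1 fresh, 66.8% of the Mcpt8l2 UMIs lay in the 24 barcodes with 3 or more mast cell or basophil markers, 1666 of them in a single barcode. Without such barcodes neither gene passed, with -1.88 ± 0.40 for Mcpt8l2 (adjusted p = 0.0847 by edgeR) and the value given above for Mcpt8l3. The mast cell and basophil list had a median log2 change of -1.33 in this comparison, with 0 of 6 tested genes called by edgeR, 3 at an unadjusted p under 0.05 and 2 called lower by DESeq2. Among all 11772 genes, 2312 had an unadjusted p under 0.05 by edgeR. The family's median log2 change was -1.38, against -0.02 over all genes. Among granzymes that did not pass, Gzma was at -0.27 ± 0.34, Gzmk at 0.44 ± 0.37 and Gzmm at 0.22 ± 0.25, with adjusted p from 0.552 to 0.711. Of the 11 rows in Ncr1 positive barcodes, edgeR called 0, with 4 at an unadjusted p under 0.05, and DESeq2 also called 0. Among all 10139 genes tested there, 1734 had an unadjusted p under 0.05 by edgeR. Cst7, which encodes cystatin F, an inhibitor of granule cathepsins, rose by 1.17 ± 0.12 over all and 0.83 ± 0.12 in Ncr1 positive barcodes. Of 18 NK subset genes tested over all barcodes, edgeR called Cx3cr1 alone, a chemokine receptor gene, which rose (0.93 ± 0.13). DESeq2 called 1 of the 18 higher and 2 lower. In Ncr1 positive barcodes edgeR called 0 of 16 tested NK subset genes, and DESeq2 called 1 lower.

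After DMSO preservation neither gene passed the test between diets. Over all barcodes Mcpt1l4 was at 129.7 and 98.9 CPM in PC1 and PC2 against 55.7 and 271 in NC1 and NC2, and Mcpt8l3 at 74.9 and 56.0 against 24.0 and 129.7. The PC values lay between the NC values for both. The log2 changes were -0.57 ± 0.66 (edgeR, adjusted p = 0.739) and -0.29 ± 0.69 (adjusted p = 0.878), where 0.642% of genes were called. In Ncr1 positive barcodes they were -0.97 ± 0.43 (adjusted p = 0.347) and -0.78 ± 0.50 (adjusted p = 0.536), where 2.65% were called. Of the 10 family rows tested in these barcodes, Gzmbl3, a granzyme B-like gene, fell by 2.15 ± 0.34 (adjusted p = 0.0127). Ctsc, the granzyme-activating cathepsin C, rose by 0.97 ± 0.16 and Tbx21, the gene of the transcription factor T-bet, fell by 0.93 ± 0.18.

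Whether the diet difference itself changed with preservation was tested in all 8 libraries. The difference of the log2 changes, after DMSO minus fresh, was 1.68 ± 0.32 for Mcpt1l4 (edgeR, adjusted p = 0.194) and 2.36 ± 0.52 for Mcpt8l3 (adjusted p = 0.303), so neither passed. Of 12163 genes, 4 were called, 0.0329%. Of the 12 family rows tested without Mcpt1, edgeR called 0, with 7 at an unadjusted p under 0.05, and DESeq2 called 1, Gzma, at an adjusted p of 0.00434. Among all 12163 genes, 765 had an unadjusted p under 0.05 by edgeR.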

How the data were processed

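The authors deposited unfiltered UMI counts per gene and barcode from 10x Chromium 3′ libraries, made with Cell Ranger 2.1.1 on Rnor6.0 (Ensembl release 86), with bcl2fastq 2.17.1.14 for demultiplexing. Reads that map to several genes are not counted, so near-identical protease genes are uncertain. Barcodes with at least 500 UMIs were used. Total counts per library were 18338700 to 26471843, and intervals and floors (3 counts) cover counting error only.

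Counts were summed by library and barcode class and fitted with edgeR 4.0.16 (quasi-likelihood, Benjamini-Hochberg over all genes tested, threshold 0.05, R 4.3.3), with the animal as the block for preservation. The SE of a log2 change was its absolute value divided by the square root of the test's F statistic, so it restates the test. The 2 libraries of an animal deviated together from the mean of all animals in their preservation state (correlations 0.445 to 0.593 across genes). These deviations include the difference between diets. The same correlation was not computed between different animals, so its cause was not tested. DESeq2 1.42.0, depth, filter, doublet (Scrublet in scanpy 1.11.5), marker and leave-one-out alternatives were run. No doublets were removed in the reported values. The fit was tested on simulated data. The 3 genes and all lists were chosen with earlier results of these data known. Named genes were the 3 members, the lists of proteases, granule genes and NK subset genes, the 5 genes most alike and the 5 with the largest carrier difference. Leaving out barcodes with 3 or more mast cell or basophil markers and the limit of 5 UMIs were chosen after seeing the data. Promoter windows are from RefSeq (GRCr8) and were aligned with Biopython 1.88. A genome of the Rnor6.0 build was not used here.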

Additional observations from a re-analysis of the deposited data

Results flagged for a closer look

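The share of Ncr1 positive barcodes with a Mcpt1l4 UMI changed in opposite directions by diet. After DMSO minus fresh, it changed by -35.4 and -22.3 percentage points in the CSAA animals NC1 and NC2 (mean -28.8) and by 0.307 and 5.33 in the CDAA animals PC1 and PC2 (mean 2.82). The difference between diets was not tested on shares. At 1000 UMIs PC1 also fell, by 2.52 percentage points, so the split of directions was not kept at equal depth.

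The share with a Mcpt1 UMI changed by a mean of -0.374 percentage points in the CSAA animals and 1.36 in the CDAA animals, with both animals of each diet moving the same way. This difference was not tested, because Mcpt1 was chosen for it.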

How the results depend on the processing

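Of 236 recomputed values with a verdict, 198 kept their direction and side of the threshold. Another 27 newly passed it, 6 no longer passed and 5 turned direction. Only some of these settings are named below, and those that newly passed were not limited to the fits without the filter. The 198 include 16 share settings each for Mcpt1l4 and Mcpt8l3. Their exact permutation test cannot go below p = 0.125, or 0.25 with an animal left out. These settings could therefore not change their side of the threshold. In Ncr1 positive barcodes, the fall of Mcpt8l3 after preservation no longer passed with DESeq2 (log2 change -0.83) or without the replicate block (-0.93). In barcodes with at least 4 NK markers, with or without Ncr1, the fall did not pass either (-1.04). In fresh libraries over all barcodes, the Mcpt8l3 diet difference no longer passed without barcodes with 3 or more mast cell or basophil markers (-1.88). Without the filter on low genes, which changes the genes tested, these newly passed: for preservation, Mcpt8l3 at -1.22 and Mcpt1l4 at -0.71 over all barcodes and Mcpt1l4 at -0.48 in Ncr1 positive barcodes; for diet in fresh libraries, Mcpt1l4 at -1.85 over all barcodes, and in Ncr1 positive barcodes Mcpt8l3 at -1.66 and Mcpt1l4 at -1.78; for diet after DMSO in Ncr1 positive barcodes, Mcpt8l3 at -0.78 and Mcpt1l4 at -0.96; for the interaction, Mcpt8l3 at 2.36 and Mcpt1l4 at 1.68. Mcpt8l3 between diets in fresh barcodes with at least 4 NK markers, with or without Ncr1, also passed (-2.14). In NC1 fresh this class included the barcode with 2682 Mcpt8l3 UMIs and 0 of Ncr1. Diet replicate numbers shared only a number (correlations -0.0495 fresh and 0.0696 after DMSO), and with them as a replicate block Mcpt8l3 after DMSO over all barcodes turned to 0.14. The causes were not tested.

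Leaving out an animal gave these ranges of log2 change for Mcpt8l3 and Mcpt1l4: preservation in Ncr1 positive barcodes, -1.01 to -0.55 and -0.75 to -0.23; diet in fresh libraries, -2.69 to -1.81 and -2.49 to -1.12 over all barcodes, and -2.21 to -0.84 and -2.53 to -1.08 in Ncr1 positive barcodes; diet after DMSO, -1.03 to 1.46 and -1.29 to 1.05 over all barcodes, and -1.46 to 0.66 and -1.59 to 0.17 in Ncr1 positive barcodes; the interaction, 1.38 to 3.46 and 1.13 to 2.23. After DMSO, the values without NC2 were the ones above 0.

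Genes called moved by over 1.5 times in these settings. For preservation over all barcodes (1003), no filter gave 1533, no replicate block 16 and leaving out NC2, PC1 or PC2 166, 381 and 468. For Ncr1 positive barcodes (666), DESeq2 gave 313, 2 or more Ncr1 UMIs 333, no filter 1079, no replicate block 17 and leaving out NC2 or PC2 170 and 391. For diet in fresh libraries over all barcodes (139), DESeq2 gave 735, no filter 560, the replicate block 274 and leaving out an animal 23 to 819. For Ncr1 positive barcodes (123), DESeq2 gave 315, 4 NK markers 213, no filter 1073, the replicate block 277 and leaving out an animal 10 to 469. After DMSO over all barcodes (73), DESeq2 gave 408, the replicate block 163 and leaving out an animal 4 to 465. In Ncr1 positive barcodes (252), leaving out Cd3e gave 153, 2 or more Ncr1 UMIs 144, 4 NK markers 446, no filter 703 and leaving out PC1 or PC2 536 and 547. For the interaction (4), DESeq2 gave 12, no filter 47, Scrublet 9 and leaving out an animal 9 to 215, while a filter by preservation group, under 20% mitochondrial UMIs and leaving out mast-marked barcodes each gave 0 by edgeR, with 739, 766 and 759 genes at an unadjusted p under 0.05.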
